A study of Homo sapiens with 6 samples.

Results

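The genes described here are 10 of the immediate early class: the AP-1 subunit genes FOS, FOSB, FOSL1, FOSL2, JUN, JUNB and JUND, the transcription factor genes EGR1 and ATF3, and the phosphatase gene DUSP1. They were taken by name from the 20792 rows of each deposited table, with earlier results of these data known. All 10 had a row of their own among the 17588 names that occur once. IER3, a further feedback gene that belongs with them, has repeated rows and is given with the companion genes. The libraries came from HUVECs, endothelial cells taken from the vein of the human umbilical cord and used as primary cultures, all grown in serum-containing M199 medium with endothelial growth factor and heparin. Cells were lipofected with miR-483 in 3 libraries, and in 3 others with 8OH-G miR-483, named for a hydroxylated (oxidised) guanine, and RNA was taken after 48 h. The scramble control named in the protocol was not analysed here, so which form of the microRNA moved a gene cannot be told apart. Nothing says that replicates were separate cultures or donors, so each p-value reflects only how these libraries vary, and that variation may be technical.

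AP-1 is a dimeric transcription factor built from a JUN protein and a FOS protein, or from a pair of JUN proteins, joined through a leucine zipper. The genes for most of its subunits, with EGR1, ATF3 and DUSP1, are copied within minutes of a growth factor, cytokine or stress signal, without new protein synthesis, and the mRNAs of FOS, FOSB and EGR1 are then cleared quickly. FOSL1 and FOSL2 follow later and stay longer, and JUND is usually expressed in resting cells. In endothelium AP-1 takes part in the response to thrombin, cytokines, growth factors and flow.

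The files name no unit, and the values were taken as FPKM from their size, a scale that allows levels of different genes to be set against each other because it is scaled for gene length. Totals were 1396537 to 1687283 FPKM per library, of which mitochondrial rows held 71.3% to 76.6%, and read depth is unknown. All 12 endothelial markers searched for had a row, with means of 24.0 FPKM (CLDN5) to 509 FPKM (VWF) under miR-483. Their sum was 2390 to 2420 FPKM with miR-483 and 1440 to 1690 with 8OH-G miR-483. Of the 12, 7 were lower and 0 higher in limma, a linear model fitted to log2(FPKM + 1) of all genes. Over all genes tested, 20.4% were called lower and 35.0% higher. Among markers of other cells, summed levels were 52.5 to 56.7 and 45.2 to 49.6 FPKM for 3 leukocyte genes, 4.30 to 4.54 and 3.46 to 4.51 for 5 mural and fibroblast genes, 71.0 to 81.6 and 127 to 144 for 3 epithelial genes and 36.1 to 38 and 23.7 to 31.4 for 3 lymphatic genes. The mural marker RGS5, whose repeated rows keep it out of that sum, was far higher, at 682, 837 and 615 FPKM with miR-483 and 833, 821 and 1015 FPKM with 8OH-G miR-483, and its groups overlap (limma adjusted p = 0.0622 with repeated names kept). Of 6 leukocyte markers searched for, 3 had a row. With miR-483 and 8OH-G miR-483, LYZ, a macrophage marker, was at 4.03 and 0.109 FPKM, CD68 at 11.9 and 7.15 and LAPTM5 at 38.76 and 40.15. LYZ and CD68 were lower, and LAPTM5 did not pass (limma adjusted p of 1.37e-06, 0.00161 and 0.584). Most of the epithelial sum was KRT18 (61.1 and 120.5 FPKM), and the part of these shifts in the results below was not tested. In bulk RNA, fewer cells of a kind and less RNA per cell cannot be told apart.

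The 4 promoters shown here belong to EGR1, the member with the largest change in proportion to its level, and to the 3 JUN family genes, which did not move together. They are the 250 bases before the annotated start of each gene, in the direction of transcription, from RefSeq (GRCh38.p14, another build than the hg19 of the submitters' processing notes). They lie at chr5:138465229-138465478 (plus strand), chr1:58784048-58784297 (minus strand), chr19:12791236-12791485 (plus strand) and chr19:18281623-18281872 (minus strand). Capitals mark the CArG box (the core that serum response factor, SRF, binds, with CC and GG around A or T bases), the AP-1 heptamer TGANTCA, the cyclic AMP response element TGACGTCA and the looser octamer TGACNTCA, which includes the preceding one.
EGR1: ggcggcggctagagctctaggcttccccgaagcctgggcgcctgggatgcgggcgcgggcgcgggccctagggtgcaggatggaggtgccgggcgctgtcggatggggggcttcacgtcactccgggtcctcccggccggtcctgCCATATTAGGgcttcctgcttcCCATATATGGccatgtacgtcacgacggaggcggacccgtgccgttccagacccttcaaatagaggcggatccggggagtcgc
JUN: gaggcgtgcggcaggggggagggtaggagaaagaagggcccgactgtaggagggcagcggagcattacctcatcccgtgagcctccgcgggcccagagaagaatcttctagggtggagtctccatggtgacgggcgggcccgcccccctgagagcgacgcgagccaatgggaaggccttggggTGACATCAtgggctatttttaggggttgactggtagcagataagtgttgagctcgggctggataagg
JUNB: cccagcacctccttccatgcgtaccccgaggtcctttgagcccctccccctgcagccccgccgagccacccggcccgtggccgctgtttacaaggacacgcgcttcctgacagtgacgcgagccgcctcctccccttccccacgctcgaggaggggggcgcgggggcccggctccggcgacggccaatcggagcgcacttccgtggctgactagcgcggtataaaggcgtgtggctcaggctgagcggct
JUND: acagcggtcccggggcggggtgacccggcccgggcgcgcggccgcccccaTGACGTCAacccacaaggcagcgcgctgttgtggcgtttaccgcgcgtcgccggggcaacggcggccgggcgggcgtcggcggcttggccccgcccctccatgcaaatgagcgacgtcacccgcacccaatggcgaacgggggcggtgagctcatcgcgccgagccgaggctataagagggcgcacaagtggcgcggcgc

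The EGR1 window held 2 CArG boxes, CCATATTAGG at position -105 and CCATATATGG at position -83 from the start site, against 1.29% of all 35116 promoter windows of 300 bases with at least 1 match on either strand. The JUN window held TGACATCA at position -67 (negative positions lie before the start site, which is 0), a form of TGACNTCA, which 7.72% of all windows contain. The exact octamer TGACGTCA, in 1.85% of windows, lay at -200 in JUND and at -125 in DUSP1. FOSL2 had the AP-1 heptamer 4 bases past its start, a motif in 7.71% of windows, and an upstream start of ATF3 had TGACATCA at -123. A TATA box, searched as TATAAA and found in 11.5% of windows, lay between -33 and -30 in DUSP1, FOS, FOSB and JUNB. A site of the form GCGNGGGCG, the sequence EGR proteins bind, was in the EGR1 window itself and in 9.43% of all windows. JUNB had none of the marked motifs in its window. Of the members, 9 had an entry in the table, and FOSL1 had none. A match is a description of the letters and shows no binding, and sequence outside the windows was not searched.

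**Figure D1:**
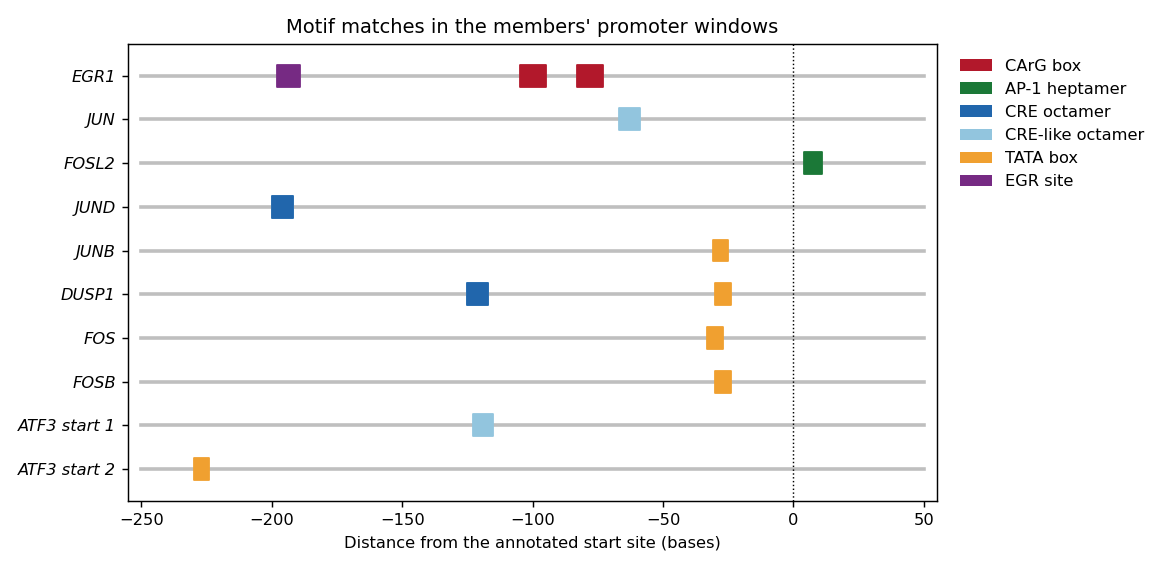
Motif matches in the promoter windows of 9 members, 250 bases before to 50 after the annotated start (x axis: distance from the start in bases; 1 line per start site, and ATF3 has 2). Within these windows EGR1 alone carries CArG boxes, 2 of them, and the TATA boxes of DUSP1, FOS, FOSB and JUNB lie between -33 and -30. Sequence further upstream was not searched, so a gene without a match here may have one there.

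The members have few exons. In GENCODE 29, JUN, JUNB and JUND have 1 exon, as do 1.78% of 10228 tested genes with a coding transcript. EGR1 has 2 and the other 6 members have 4, where the median gene has 9. Pentamers of the form ATTTA in the 3′ UTR, which occur in elements that shorten mRNA life, numbered 9 in FOSL2 (1.85 per kb), 5 in FOS (6.20 per kb), 4 in DUSP1 (5.95 per kb) and 2 in JUNB (4 per kb), with a median over tested genes of 1.61 per kb. JUN, with 2.33 per kb, and ATF3, with 2.45, were above that median, and EGR1, with 0.81, FOSB, with 1.39, JUND, with 1.47, and FOSL1, with 1.5, were below it. No pattern by direction of change was tested over so few genes.

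In cells given 8OH-G miR-483, EGR1, FOSL1 and JUN were higher and JUND, JUNB and DUSP1 were lower, FOSL2 did not pass the test, and FOS, FOSB and ATF3 were below 1 FPKM in every library. The test was limma on log2(FPKM + 1) with p adjusted by Benjamini and Hochberg and called under 0.05, over the 12216 genes that reached 1 FPKM in 3 or more libraries. Of all those genes, 35.0% were called higher and 20.4% lower, so a call in either direction is common in this comparison. The 3 values of 8OH-G miR-483 lay wholly above those of miR-483 for 39.7% of tested genes and wholly below for 23.6%. Of the members, 7 entered the test. EGR1 entered only because of its level in cells given 8OH-G miR-483, being below 1 FPKM in the others, so that it had to differ and is described apart. Under median-ratio scaling or quantile normalization the median of all genes moved from 0.10 to 0.01 or -0.01 on the log2 scale, and the share of higher genes among the calls from 63.2% to 51.7% or 49%. Each call on these 7 members was the same under both.

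**Figure D2:**
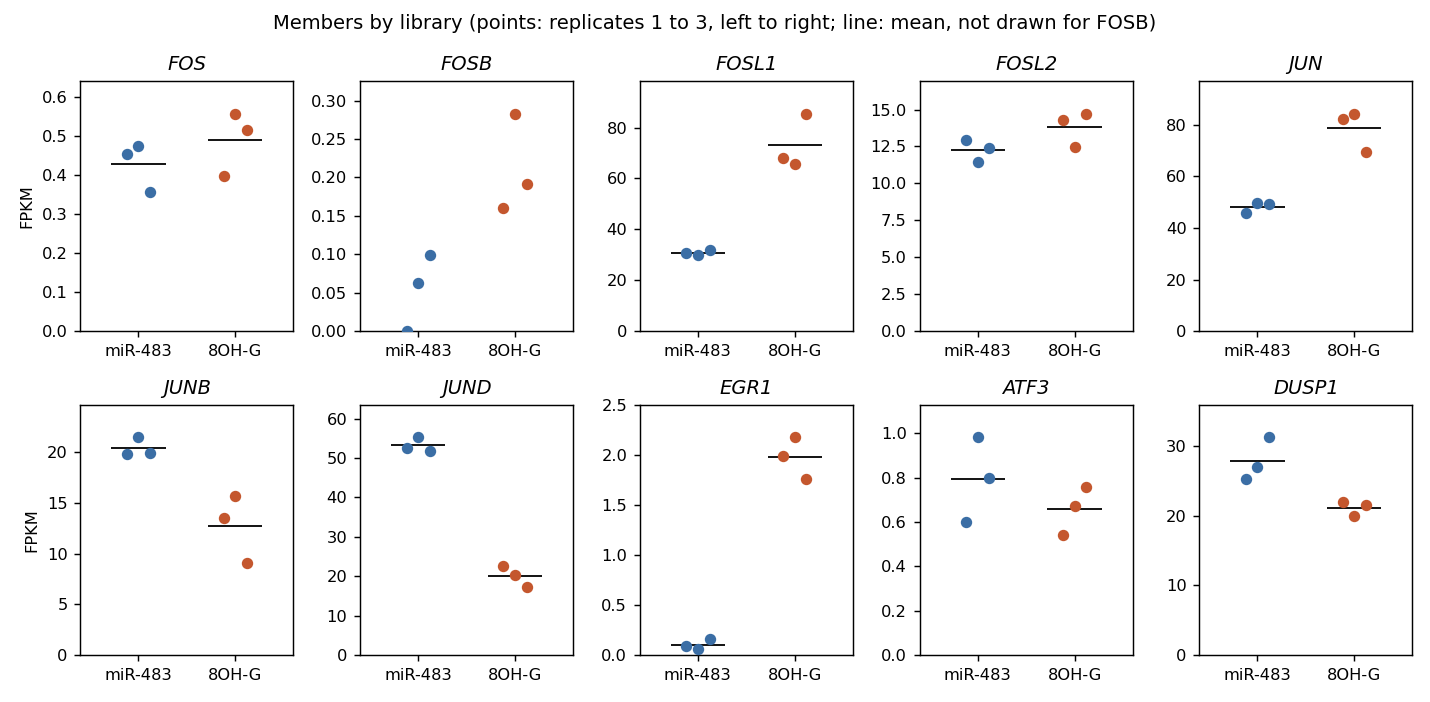
FPKM of the 10 members in each library (y axis from 0, in FPKM, its own scale in each panel; points are the 3 libraries of a group, lines the group mean, not drawn for FOSB). The groups do not overlap for FOSL1, JUN, JUNB, JUND, EGR1, DUSP1 and FOSB, which at 0 to 0.283 FPKM is near the floor, and overlap for FOS, FOSL2 and ATF3.

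Among the FOS family, FOSL1, which encodes Fra-1, had the highest level and the clearest change. Its values were 30.6, 30.1 and 31.8 FPKM with miR-483 and 67.9, 65.7 and 85.4 FPKM with 8OH-G miR-483. The groups were far apart, and the spread was wider with 8OH-G miR-483, where replicate 3 stood above the other libraries. The mean rose 2.37-fold, from 30.8 ± 0.856 to 73.0 ± 10.8 FPKM (here and below ± is the SD over n = 3), with a limma log2 fold change of 1.21 (SE 0.1, adjusted p = 2.19e-05). FOSL2, which encodes Fra-2, was at 13.0, 11.5 and 12.4 FPKM with miR-483 and at 14.3, 12.5 and 14.7 FPKM with 8OH-G miR-483. These groups overlap. Its log2 fold change was 0.16, with a 95% interval of -0.03 to 0.35 (limma, adjusted p = 0.135), which reaches from no change to a modest rise. Without 8OH-G miR-483 replicate 2 the same test passed, at 0.23 (adjusted p = 0.0451, limma), and over the 15 settings tried its adjusted p ran from 0.0451 to 0.696.

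FOS and FOSB, the subunits that follow a stimulus fastest, were near the floor of the data on the day of sampling. FOS was at 0.454, 0.475 and 0.356 FPKM with miR-483 and at 0.397, 0.556 and 0.515 FPKM with 8OH-G miR-483, between the percentiles 19.2 and 24.4 of the 17588 uniquely named rows. The groups overlap. FOSB was listed at 0, 0.0624 and 0.0991 FPKM with miR-483 and at 0.161, 0.283 and 0.192 FPKM with 8OH-G miR-483. The latter are higher in all 3 libraries, but at levels where a few reads decide a value. Neither entered the test. In the fit with no filter on low values, FOS had a log2 fold change of 0.06 (95% interval -0.11 to 0.23, limma adjusted p = 0.557) and FOSB of 0.20 (0.04 to 0.36, limma adjusted p = 0.0459).

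The JUN family changed in both directions. JUN, the main partner of FOS proteins, was at 45.9, 49.5 and 49.1 FPKM with miR-483 and at 82.1, 84.2 and 69.4 FPKM with 8OH-G miR-483. All 3 values of the latter were above all of the former, with replicate 3 the lowest of them. The mean rose 1.63-fold, from 48.2 ± 1.99 to 78.6 ± 8.00 FPKM, and the limma log2 fold change was 0.69 (SE 0.0855, adjusted p = 2.00e-04). JUND, the subunit linked to resting cells, was at 52.6, 55.3 and 51.7 FPKM with miR-483 and at 22.6, 20.4 and 17.3 FPKM with 8OH-G miR-483. The groups were separated by more than the range of either. The mean was 2.65-fold lower, at 20.1 ± 2.63 FPKM against 53.2 ± 1.84, with a limma log2 fold change of -1.37 (SE 0.0943, adjusted p = 8.80e-06). JUNB, which competes with JUN for partners and is the weaker activator on many promoters, was at 19.9, 21.5 and 19.9 FPKM with miR-483 and at 13.5, 15.7 and 9.12 FPKM with 8OH-G miR-483. The groups do not overlap, but the 8OH-G miR-483 libraries were widely spread. The limma log2 fold change of JUNB was -0.67 (SE 0.163, adjusted p = 0.00817), from 20.4 ± 0.915 to 12.8 ± 3.33 FPKM.

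EGR1, a zinc finger factor induced through SRF, went from 0.0864, 0.0568 and 0.163 FPKM with miR-483 to 1.99, 2.18 and 1.76 FPKM with 8OH-G miR-483. It was barely detected in the former and low in all libraries of the latter, between the percentiles 38.2 and 40.7 of uniquely named rows. The means were 0.102 ± 0.0549 and 1.97 ± 0.207 FPKM, a ratio of 19.3, and the log2 fold change was 1.43 (SE 0.0899, limma adjusted p = 5.65e-06). Because the level is low, this value depends on the pseudocount, and it was 3.39 with 0.1 in place of 1. EGR1 was also tested with a filter on the mean of all 6 libraries (limma adjusted p = 6.27e-06). It met that filter, too, only through its level with 8OH-G miR-483, so this result adds no separate support. ATF3, a stress-induced factor that can pair with JUN proteins, was at 0.602, 0.982 and 0.801 FPKM with miR-483 and at 0.540, 0.672 and 0.759 FPKM with 8OH-G miR-483. The groups overlap, ATF3 did not enter the test, and without the filter its log2 fold change was -0.11 (95% interval -0.34 to 0.12, limma adjusted p = 0.409). DUSP1, a nuclear phosphatase that switches off the MAP kinases upstream of these genes, was at 25.3, 27.1 and 31.3 FPKM with miR-483 and at 22, 20 and 21.6 FPKM with 8OH-G miR-483. The groups lie close but do not overlap. The log2 fold change of DUSP1 was -0.38 (SE 0.0877, limma adjusted p = 0.00624), a 1.32-fold lower mean.

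**Figure D3:**
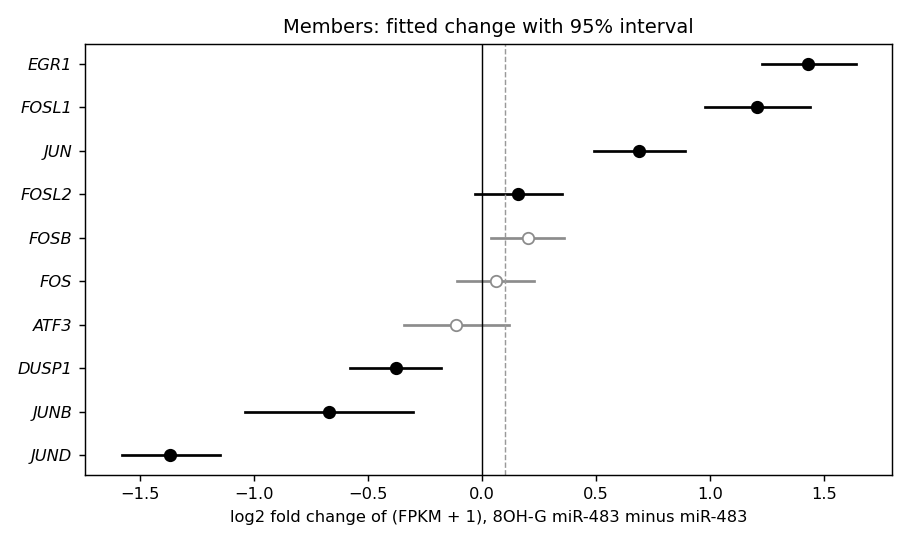
Fitted log2 fold change of log2(FPKM + 1) with its 95% interval for each member (x axis: 8OH-G miR-483 minus miR-483; filled points: tested as described; open grey points: from the fit with no filter on low values; dashed line: median of all tested genes, 0.10). EGR1, FOSL1 and JUN lie above 0.49 over their whole interval, and JUND, JUNB and DUSP1 lie below -0.18. EGR1 entered the test only through its level with 8OH-G miR-483.

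The order of the members by level differed between the groups. With miR-483 it ran JUND (53.2 FPKM), JUN (48.2), FOSL1 (30.8), DUSP1 (27.9), JUNB (20.4), FOSL2 (12.3), ATF3 (0.795), FOS (0.428), EGR1 (0.102) and FOSB. In that list, the ranges of FOSL1 and DUSP1 overlapped, as did those of EGR1 and FOSB, and all other neighbours were apart. With 8OH-G miR-483 it ran JUN (78.6 FPKM), FOSL1 (73.0), DUSP1 (21.2), JUND (20.1), FOSL2 (13.8), JUNB (12.8), EGR1 (1.97), ATF3 (0.657), FOS (0.490) and FOSB. There JUN and FOSL1 overlapped, as did DUSP1 and JUND, FOSL2 and JUNB, and ATF3 and FOS. JUND went from the percentiles 92.9 to 93.4 of uniquely named rows to 77.5 to 82.3, and FOSL1 from 87.5 to 88.0 to 94.3 to 96.1.

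Within each family the make-up of the mRNA pool was compared as the share of each subunit in the summed FPKM. The JUN family sum was 118, 126 and 121 FPKM with miR-483 and 118, 120.3 and 95.9 FPKM with 8OH-G miR-483, ranges that overlap (exact permutation test, 2-sided, p = 0.2). Median-ratio scaling moved the log2 fold change of JUN from 0.69 to 0.59, JUNB from -0.67 to -0.76 and JUND from -1.37 to -1.46. The sum was not recomputed after scaling, so its narrow overlap holds for the values as deposited. Inside that sum, JUN made up 38.8%, 39.2% and 40.7% with miR-483 and 69.5%, 70.0% and 72.4% with 8OH-G miR-483. JUND made up 44.4%, 43.8% and 42.8% and then 19.1%, 16.9% and 18.1%. JUNB went from 16.8% ± 0.260 to 11.3% ± 1.75 (SD, n = 3 per group). Here the sum was held by different subunits in the 2 groups, with JUND the largest in each miR-483 library and JUN the largest in each 8OH-G miR-483 library.

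The FOS family sum was 44.0, 42.1 and 44.6 FPKM with miR-483 and 82.7, 79.0 and 100.9 FPKM with 8OH-G miR-483 (exact permutation test, 2-sided, p = 0.1, the smallest that 3 against 3 allows). FOSL1 made up 69.5%, 71.5% and 71.2% and then 82.1%, 83.2% and 84.7% of it, and FOSL2 28.2% ± 1.16 and then 15.9% ± 1.34 (SD, n = 3 per group). FOS was at 0.986% ± 0.170 and 0.565% ± 0.121, and FOSB at or below 0.358% in each library. Of the 7 shares compared, 6 did not overlap between the groups and had an exact permutation p of 0.1 (0.117 adjusted over the 7), and FOSB, which overlapped, had 0.3. Shares of a family add up to the whole, so these are not separate results. The FOS share was lower while FOS itself overlapped and the family sum was larger. Single tested genes lay wholly above for 39.7% and wholly below for 23.6%, and no such share was computed for other families. The ratio of JUN family to FOS family FPKM was 2.69, 3.00 and 2.71 with miR-483 and 1.43, 1.52 and 0.951 with 8OH-G miR-483. These are shares of mRNA, and protein was not measured.

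**Figure D4:**
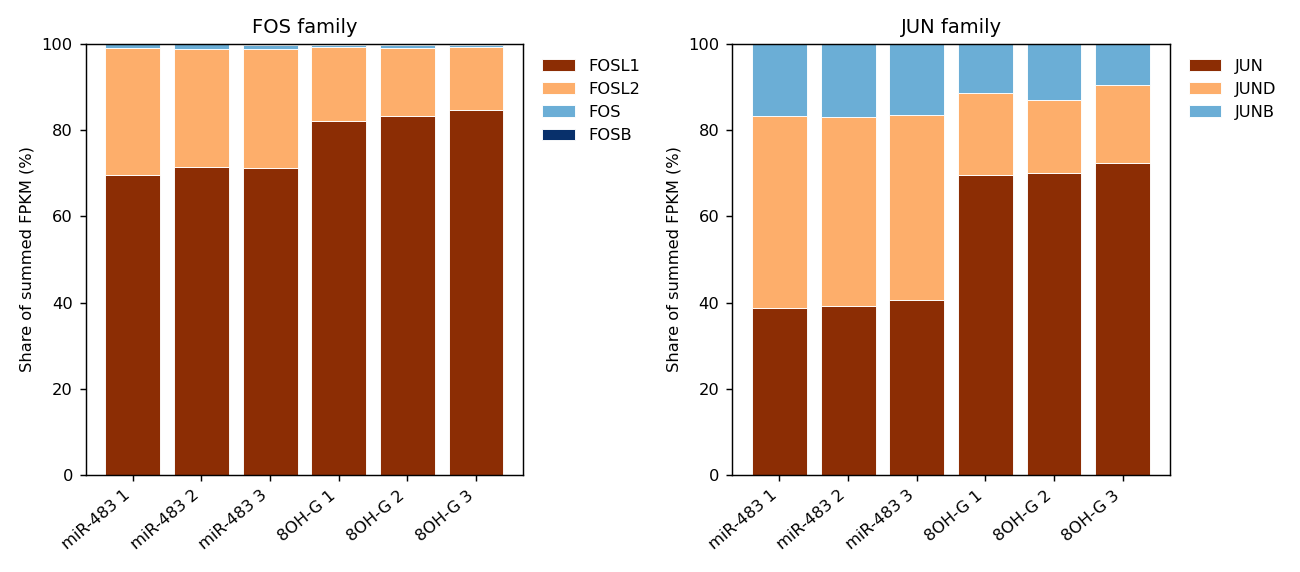
Share of each subunit in the summed FPKM of its family, per library (y axis: percent from 0 to 100; bars: the 3 libraries of miR-483, then the 3 of 8OH-G miR-483). JUN fills 38.8% to 40.7% of the JUN family bar with miR-483 and 69.5% to 72.4% with 8OH-G miR-483, and FOSL1 fills the larger part of each FOS family bar.

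Members were also set against each other within each library, as the difference of their log2(FPKM + 1) levels, for 5 pairs. All but EGR1 and FOS were pairs within a family. JUN minus JUND was -0.14 ± 0.062 with miR-483 and 1.92 ± 0.091 with 8OH-G miR-483 (SD, n = 3 per group). This was a change of 2.06, the largest of the 5 at a pseudocount of 1. JUN minus JUNB changed by 1.36, FOSL1 minus FOSL2 by 1.05 and JUNB minus JUND by 0.70, the last because JUND was lower by more than JUNB. EGR1 minus FOS changed by 1.37. For all 5 pairs the groups did not overlap, and the exact permutation test (2-sided) gave 0.1, raw and adjusted over the 5, the smallest it can give. The 5 are not separate results, since JUN minus JUND is the sum of JUN minus JUNB and JUNB minus JUND. EGR1 and FOS were both at low levels, where the difference depends on the pseudocount. With 0.1 in place of 1, the log2 fold change of EGR1 alone was 3.39. The pairs were computed only with 1, so their order holds for that setting. Single tested genes lay wholly above for 39.7% and wholly below for 23.6%, and no such share was computed over gene pairs.

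The companion genes were read against the same background of 35.0% higher and 20.4% lower, with a median log2 fold change of 0.10 over all tested genes. Upstream of EGR1 and FOS, the SRF group (SRF, the ternary complex factors ELK1, ELK3 and ELK4 and the actin-regulated partners MKL1 and MKL2) had 2 higher, 2 lower and 2 that did not pass. ELK3, a factor that can repress SRF targets and is abundant in endothelium, fell from 117 ± 3.59 to 68.5 ± 8.18 FPKM (limma log2 fold change -0.77, adjusted p = 1.40e-04). SRF (8.99 ± 0.767 to 10.6 ± 0.184 FPKM), ELK1 (9.63 ± 0.831 to 11.4 ± 0.395) and ELK4 (12.6 ± 0.898 to 10.6 ± 0.296) passed with small changes (limma adjusted p of 0.0355, 0.0345 and 0.0299). The calls of SRF and ELK1 were lost after median-ratio scaling (limma adjusted p of 0.183 and 0.179) and after quantile normalization (0.397 and 0.340). Leaving out 1 library also ended the call of SRF for all but miR-483 replicate 3 (0.0575 to 0.122), that of ELK1 for replicates 1 and 2 of miR-483 and 1 and 3 of the other group (0.0839 to 0.110). The call of ELK4 was lost without replicate 1 or 3 of either group (0.0692 to 0.105, limma). MKL1 passed as lower after either scaling (limma adjusted p of 0.0459 and 0.0315) and without miR-483 replicate 2 (0.0312). The EGR cofactors NAB1 and NAB2 did not pass, although NAB1 did without 8OH-G miR-483 replicate 2 (limma adjusted p = 0.0473). Of 5 other EGR and NAB genes searched for, only these 2 had a row.

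Of 13 tested genes of the ERK route, from EGFR and the RAS genes to the RPS6KA kinase genes, 2 were higher, 2 lower and 9 did not pass. NRAS (28.2 ± 0.414 to 34.3 ± 0.557 FPKM) and MAP2K1, the gene of the ERK kinase MEK1 (18.6 ± 0.894 to 23.1 ± 1.34 FPKM), rose, and MAPK3, the gene of ERK1 (95.1 ± 11.7 to 64.4 ± 1.30 FPKM), and RPS6KA2 (30.8 ± 0.954 to 21.6 ± 1.77 FPKM) fell (limma adjusted p from 6.57e-04 to 0.00714). After median-ratio scaling 4 were lower and after quantile normalization 5, with 2 higher in each. Without miR-483 replicate 2 there were 4 lower and without 8OH-G miR-483 replicate 2 there were 4 higher. With repeated gene names kept, which added HRAS and RPS6KA1, 3 were higher, RPS6KA1 among them (limma adjusted p = 0.00134). Of 15 tested JNK and p38 kinase genes, 8 were higher, 3 lower and 4 did not pass, with a median of 0.22. The p38 activators MAP2K3 and MAP2K6 rose 1.86-fold and 2.23-fold in mean FPKM, and the p38 effector MAPKAPK3 rose 2.07-fold, from 5.52 ± 0.473 to 11.4 ± 0.445 FPKM. MAPK14, the gene of p38α, rose 1.29-fold, and MAPK11, the gene of p38β, fell from 28.5 ± 1.79 to 15.6 ± 2.28 FPKM. MAP3K5, the stress kinase ASK1, fell 2.19-fold and MAPKAPK2 1.18-fold. In limma the adjusted p of these 7 genes ran from 2.11e-05 to 0.0126. After quantile normalization 4 genes of the list were higher and 5 lower, and after median-ratio scaling 6 and 5.

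Among 7 other tested DUSP genes, the phosphatases related to DUSP1, 4 were lower, 2 higher and 1 did not pass. DUSP4, a nuclear phosphatase of ERK, fell from 62.8 ± 0.980 to 34.2 ± 2.74 FPKM (limma log2 fold change -0.86, adjusted p = 2.43e-05). DUSP22 fell 1.79-fold, DUSP5 1.49-fold and DUSP7 1.16-fold in mean FPKM. DUSP6, the cytoplasmic ERK phosphatase, rose from 25.7 ± 4.63 to 35.0 ± 3.42 FPKM, a call that was lost without miR-483 replicate 1 or 3 (limma adjusted p of 0.0507 and 0.0565). That of DUSP7 was lost without miR-483 replicate 1 or 3 or any of the 8OH-G miR-483 libraries (0.0722 to 0.151, limma). DUSP10, which acts on JNK and p38, was at 0.534 ± 0.0412 and 1.55 ± 0.269 FPKM and, like EGR1, entered the test through one group alone. With repeated gene names kept, 4 genes of the list were higher, and 1 was when any 1 library other than miR-483 replicate 2 was left out.

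The other immediate early genes were called in equal numbers, 10 higher and 10 lower of 23 tested, with 3 that did not pass and a median of 0.12. The higher ones with the smallest p were TRIB1, a pseudokinase gene (2.08 ± 0.125 to 6.05 ± 0.214 FPKM), MYC, RGS2, a brake on G-protein signals (1.69 ± 0.312 to 6.21 ± 0.663 FPKM), and the kinase gene SGK1 (22.1 ± 1.23 to 67.4 ± 11.7 FPKM). MYC rose 1.89-fold in mean FPKM. The lower ones with the smallest p were IER5 (19.2 ± 0.785 to 8.26 ± 0.346 FPKM), BTG1, an antiproliferative gene (35.1 ± 1.56 to 16.9 ± 3.28 FPKM), and ZFP36L2 and ZFP36L1, which encode proteins that bind AU-rich elements and speed the decay of mRNAs (29.9 ± 0.907 to 14.2 ± 2.28 and 59.8 ± 1.81 to 40.1 ± 3.37 FPKM). In limma the adjusted p of these 8 genes ran from 4.30e-06 to 3.12e-04. IER3 has 6 rows in each table, 5 of them at 0 in miR-483 replicate 1. At the highest value per library it was at 278.8, 267.5 and 275.6 FPKM with miR-483 and at 183.6, 177.3 and 141.1 FPKM with 8OH-G miR-483. The groups do not overlap, and in the fit that kept repeated names its log2 fold change was -0.72 (SE 0.103, limma adjusted p = 4.73e-04), in the same direction as that of DUSP1.

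Of 17 tested bZIP genes whose products can pair with AP-1 subunits or share their sites, 5 were higher, 5 lower and 7 did not pass, with a median of -0.06. CREM, which encodes activators and repressors of cyclic AMP elements, rose from 13.1 ± 1.73 to 23.9 ± 1.32 FPKM and ATF5 from 13.6 ± 0.762 to 22.2 ± 0.449 FPKM (limma adjusted p of 1.64e-04 and 6.28e-05). ATF6, NFE2L2 and MAFK fell 1.35-fold, 1.22-fold and 1.24-fold in mean FPKM. JDP2, a repressor that binds JUN proteins, was at 1.53 ± 0.306 and 0.747 ± 0.459 FPKM, with groups that overlap (limma adjusted p = 0.0273). JDP2 met the filter only through its miR-483 libraries, with 0.643, 1.25 and 0.348 FPKM in the others, so its call is no separate support. The call of JDP2 was lost without replicate 1 or 3 of either group (limma adjusted p of 0.0658 to 0.0876). ATF1 (8.15 ± 0.411 to 10.1 ± 0.937 FPKM) and CREB1 (8.14 ± 1.19 to 10.5 ± 0.821 FPKM) passed as deposited, but not after median-ratio scaling (limma adjusted p of 0.0955 and 0.0781) or quantile normalization (0.226 and 0.136). ATF1 also did not pass without replicate 2 of either group or replicate 3 of 8OH-G miR-483 (0.0626 to 0.0695), nor CREB1 without replicate 2 or 3 of miR-483 or replicate 1 of 8OH-G miR-483 (0.0629 to 0.0841), in limma. DDIT3, higher, and ATF4, lower, were the other calls, named here after their values were seen. DDIT3 was lost after either scaling (limma adjusted p of 0.0942 and 0.242), with no filter (0.0501) and without replicate 1 or 2 of 8OH-G miR-483 or 1 or 3 of miR-483 (0.0793 to 0.109). ATF4 was lost with no filter (limma adjusted p = 0.0516) and without replicate 1 or 2 of miR-483 or 1 or 3 of 8OH-G miR-483 (0.0748 to 0.118). After either scaling 2 genes of the list were higher and 7 lower. Without replicate 2 or 3 of miR-483, or 1 or 2 of 8OH-G miR-483, 3 were higher, and without miR-483 replicate 1 or 8OH-G replicate 3, 3 were lower.

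Genes named in textbooks as AP-1 targets were called in both directions. Of 28 tested, 16 were higher, 8 lower and 4 did not pass, with a median of 0.65, and 15 were higher and 8 lower after either scaling. MT2A, a metallothionein gene, rose from 84.0 ± 6.30 to 366 ± 25 FPKM, TNFRSF12A, the receptor of TWEAK, from 16.9 ± 1.65 to 66.0 ± 3.38 FPKM, and the chromatin protein gene HMGA2 from 18.1 ± 0.169 to 48.4 ± 5.84 FPKM. CXCL8 rose 23.4-fold in mean FPKM. Its miR-483 values were 1.02, 0.968 and 1.90 FPKM. It met the filter only with its level under 8OH-G miR-483, so its call is no separate support. STC1, a secreted glycoprotein gene, fell from 19.8 ± 1.97 to 9.40 ± 0.691 FPKM, the growth factor gene VEGFA from 37.1 ± 4.90 to 8.99 ± 2.60 FPKM, the fibronectin receptor subunit gene ITGA5 from 605 ± 7.28 to 393 ± 21.3 FPKM and ICAM1 from 16.8 ± 0.528 to 9.81 ± 1.11 FPKM. In limma the adjusted p of these 8 genes ran from 9.85e-07 to 1.65e-04. Many of these genes also answer to other factors, and the list was drawn up with earlier results of these data known, so its counts describe the list and do not show AP-1 activity.

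Heat shock genes, which can mark stress or handling at harvest, were summarised because immediate early genes answer to both. Of 8 tested, 5 were higher, 1 lower and 2 did not pass. HSPD1 and HSPE1, the mitochondrial chaperonins, rose 2.92-fold and 2.63-fold, HSPA8 2.18-fold and HSP90AA1 2.00-fold, while HSPB1 fell from 573 ± 61.3 to 310 ± 54.9 FPKM (limma adjusted p of these 5 from 2.06e-06 to 6.00e-04). The inducible HSPA1A and HSPA1B, which are near-identical copies with repeated rows, were at 29.2 and 30 FPKM and at 25.4 and 27.9 FPKM with miR-483 and 8OH-G miR-483, and neither passed (limma adjusted p of 0.734 and 0.137). The part of stress or handling in the members' changes was not tested.

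**Figure D5:**
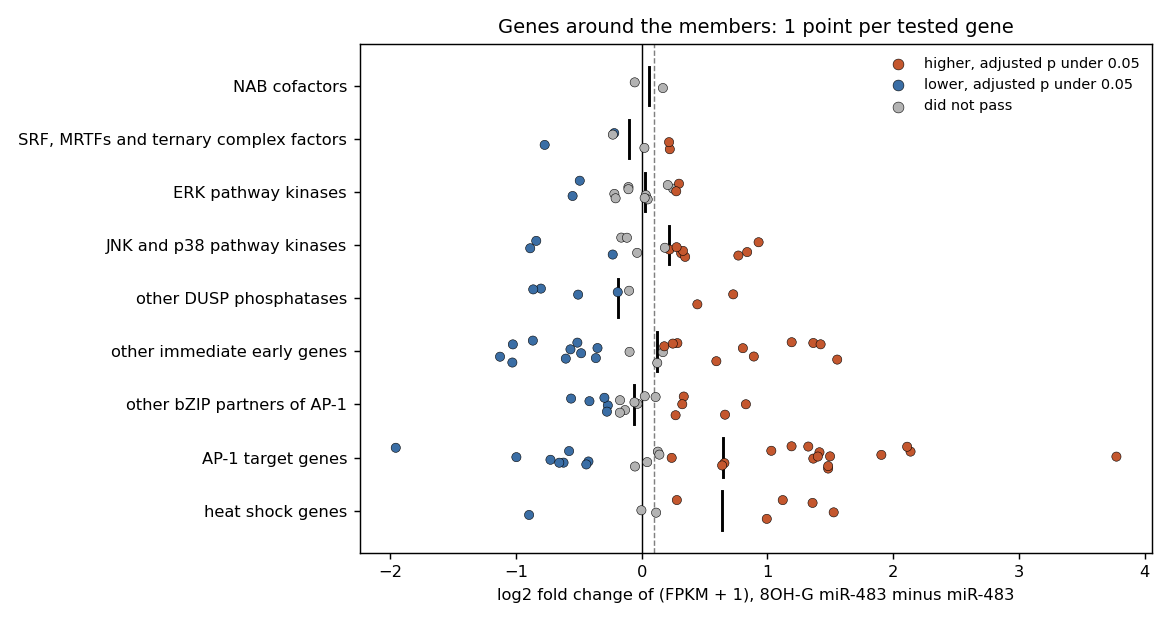
Fitted log2 fold change of each tested gene in the 9 companion lists (x axis: log2(FPKM + 1), 8OH-G miR-483 minus miR-483; orange: called higher, blue: called lower, grey: did not pass; black bars: list medians; dashed line: median of all tested genes, 0.10). Each list of more than 5 tested genes has calls on both sides of 0, and the AP-1 target list has a median of 0.65.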

How the data were processed

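RNA sequencing values of 6 HUVEC libraries (3 per group) were used. Per the submitters' processing notes, the genome was hg19 and the tools included STAR, HTSeq, DESeq2 and cutadapt, with no order or settings. Each deposited file holds 1 column without a named unit, and the authors' values were taken as FPKM because they are decimals whose totals differ between libraries and exceed what CPM or TPM would allow. The sources used here do not give strand or how shared reads were counted. Low values were searched for whole-read steps between replicates 2 and 3 of miR-483: at the best of 200 depth ratios, 39.4% of the 1773 genes with low values were whole multiples (tolerance 0.02 log2), against a median of 35.5%, so reads were not recovered and no counting interval is given.

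The 3204 rows that share 748 names were left out and kept, at the highest value per name, as an alternative. The 12216 genes reaching 1 FPKM in 3 or more libraries were fitted with limma 3.58.1 in R 4.3.3 on log2(FPKM + 1), with trend and robust shrinkage and group as the only term. The fit was tested on simulated data. Shares and pairs were tested by exact permutation over libraries (scipy 1.17.1). Promoters came from the RefSeq table (GRCh38.p14), and exon and 3′ UTR features from the GENCODE 29 transcript with the longest coding sequence. A planned search for miR-483 seed matches was not run. The members, the lists and the tests were chosen with earlier results of these data known. All members are named, and from each companion list up to 4 genes per direction with the smallest adjusted p, with IER3, NAB1, NAB2 and the 6 genes of the SRF list. HSPA1A, HSPA1B, DDIT3 and ATF4 were named after their values were seen. Figures were drawn with matplotlib 3.10.9.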

Additional observations from a re-analysis of the deposited data

How the results depend on the processing

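Settings tried were a pseudocount of 0.1 or 0.5, no filter or a filter on the mean, median-ratio scaling, quantile normalization, repeated names kept, a replicate block, plain variance shrinkage and each library left out. FOSL1, JUN, JUNB, JUND and DUSP1 kept their direction and their call in all 15. Their log2 fold changes were, in that order, 1.09 to 1.28, 0.59 to 0.78, -0.82 to -0.46, -1.46 to -1.27 and -0.47 to -0.30. EGR1 could be tested in 12 settings (1.38 to 3.39). Except with no filter, it entered these through its level with 8OH-G miR-483 and so had to differ. EGR1 had no value without any 1 of the 8OH-G miR-483 libraries, since it then no longer met the filter. With EGR1 so lost, 2 members were higher without replicate 1 or 3 of 8OH-G miR-483. The counts over the members, over the 9 companion lists together and over all genes stayed within 1.5 times. The subunit shares were recomputed only with each library left out, and stayed within their spread. Median-ratio scaling cannot change a share, and the other settings were not run on the shares. Over the companion genes, 121 of 1782 values changed their side of the threshold and 0 reversed. Same-numbered libraries of the groups had correlations of 0.02, 0.34 and 0.01 between their deviations from the group means, so the numbers were not taken as pairs, and libraries did not all correlate best with their own number. With the replicate block, 3 members were higher and 3 lower, as without it, and 4635 genes were higher and 2677 lower over all. JDP2 did not pass with the block (limma adjusted p = 0.0637), and NAB1 and MKL1 did (0.0418 and 0.0174). In the ERK list 4 were higher and 4 lower with it. Read depth is unknown, which limits the values of FOS, FOSB, ATF3 and EGR1 most.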
